A study of Mus musculus with 18 samples.

Results

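The lysosomal hydrolase and membrane genes described here are 33 genes of the liver: 21 hydrolases with their protective protein, 2 soluble helpers, 4 membrane proteins, 5 subunits of the proton pump and 1 regulator. They were chosen by name, with earlier results of these data known. Each gene was read from the probe set, of those annotated to it, with the highest mean over the 18 arrays. The arrays measured 18193 named genes in that way, of which 12578 were bright enough to test; all 33 lysosomal genes were among these, each through arrays of both genotypes. Bright enough meant a probe set brighter than the median of all probe sets on 3 or more arrays.

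Livers came from male mice aged 12 weeks that ate 1 of 3 synthetic diets over the last 8 weeks, starting when they were weaned at week 4, and that were fasted for 4 h. Knockout mice had the genotype Alb-Cre+/-/POR-lox+/+, so that Cre, driven by the albumin promoter of hepatocytes, removed the floxed cytochrome P450 reductase gene from liver; controls were Alb-Cre-/-/POR-lox+/+ and carried the same floxed alleles without Cre. The fat of the diets was lard, canola oil or a fish/fungal mixture of menhaden and ARASCO oils, and it made up 7% of the diet in the sample labels and 6% in the series text. Genotype and diet made 6 groups with 3 arrays each, and each array carried liver RNA pooled from 3 mice, so that the spread between arrays is one between pools and not between mice. The targeted gene is not analysed here, and the genotype labels were therefore not checked against it. Markers of hepatocytes had a mean log2 level of 13.63 to 13.89 over the 18 pools. Array medians lay between 5.229 and 5.286, and arrays of a group correlated with each other at 0.9928 to 0.9969.

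Lysosomes are acidic organelles in which proteins, sugars and lipids taken up by endocytosis or autophagy are broken down. A proton pump, the vacuolar ATPase, acidifies the lumen, soluble hydrolases cut their substrates at that low pH, and heavily glycosylated membrane proteins line the membrane and carry products out. In liver, hepatocytes and Kupffer cells both have many lysosomes, and lysosomal acid lipase releases cholesterol and fatty acids from the lipids of endocytosed lipoproteins. Many of these genes are targets of the transcription factor Tfeb, which binds a palindromic element called CLEAR. Cytochrome P450 reductase passes electrons to the microsomal cytochromes P450, which make bile acids and metabolize drugs and fatty acids.

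The core of the CLEAR element was looked for in RefSeq promoter windows of the mouse build GRCm38.p6, each running from 250 bases before to 50 bases after a gene's start. Of the 33 lysosomal genes, 28 had a window in the table; Asah1, Atp6v0d2, Atp6v1h, Ctsb and Ctsh did not. The 6-base core CACGTG was present in 12 of the 28 genes (42.9%), against 8.09% of the 27025 genes in the table. The 8-base TCACGTGA was present in 6 of the 28 (21.4%), namely Atp6v0d1, Atp6v1a, Ctsa, Ctsd, Gla and Mcoln1, against 1.12% of all genes. The full 10-base CLEAR palindrome, which adds 1 base to each end of it, was present in 0 of the 28 and in 0.37% of all genes. Each of these motifs reads the same on both strands, and the longer ones contain the shorter ones; a match describes the letters and is not a measured binding site. The genes were chosen by name and many are known targets of Tfeb, so the higher shares are a description and no test. The comparison is with all genes of the promoter table and not with the genes tested on the arrays.

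The windows below are shown because they hold the 8-base motif, or, for Lamp1, the most copies of the 6-base core. The motif of Atp6v0d1 reaches past the gene's start and is not printed. Each window is written 5′ to 3′ on the gene's strand, with the longest motif found in capitals.
Ctsd, chr7:142387905-142387940, minus strand: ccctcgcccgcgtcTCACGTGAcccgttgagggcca
Ctsa, chr2:164833746-164833772, plus strand: caatgagcaaactgTCACGTGAtgcag
Atp6v1a, chr16:44139370-44139405, minus strand: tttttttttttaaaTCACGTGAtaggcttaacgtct
Gla, chrX:134601179-134601247, minus strand: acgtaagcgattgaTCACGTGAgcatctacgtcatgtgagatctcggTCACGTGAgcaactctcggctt
Mcoln1, chr8:3500434-3500494, plus strand: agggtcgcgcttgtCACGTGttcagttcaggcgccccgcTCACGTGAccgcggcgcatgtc
Lamp1, chr8:13159086-13159160, plus strand: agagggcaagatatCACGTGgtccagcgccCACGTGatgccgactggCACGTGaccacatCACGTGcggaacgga
Gla had 2 copies of the 8-base motif, and Lamp1 had 4 copies of the core within the last 75 bases before its start.

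Hydrolases, a sphingolipid activator and 1 pump subunit were more abundant in knockout than in control liver. Averaged over the 3 diets, 9 of the 33 genes were higher in the knockout and 0 were lower (all 15 with an unadjusted p under 0.05 were higher; limma with Benjamini-Hochberg adjustment over all genes tested, threshold 0.05), against 3.82% of all genes tested that were higher and 0.755% that were lower. The 9 were Hexa, Gusb, Neu1, Lipa, Ctsd, Ctsz, Ctsb, Psap and Atp6v0d2, with rises of 13.5% (Ctsb) to 44.2% (Atp6v0d2). The log2 change was above 0 for 30 of the 33 genes (29 after repeated normalization or centring), against 48% of all genes, and its median was 0.158, against -0.005 over all genes. By role, 7 of 21 hydrolases, 1 of 2 soluble helpers, 0 of 4 membrane proteins, 1 of 5 pump subunits and 0 of 1 regulator were higher, and with 3.82% of all genes higher the counts of 0 lie near that share. Of all genes, 18% had an unadjusted p under 0.05. When quantile normalization was repeated over the arrays, the 480 higher and 95 lower calls over all genes became 401 and 163, and 8 of the lysosomal genes were higher.

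**Figure D1:**
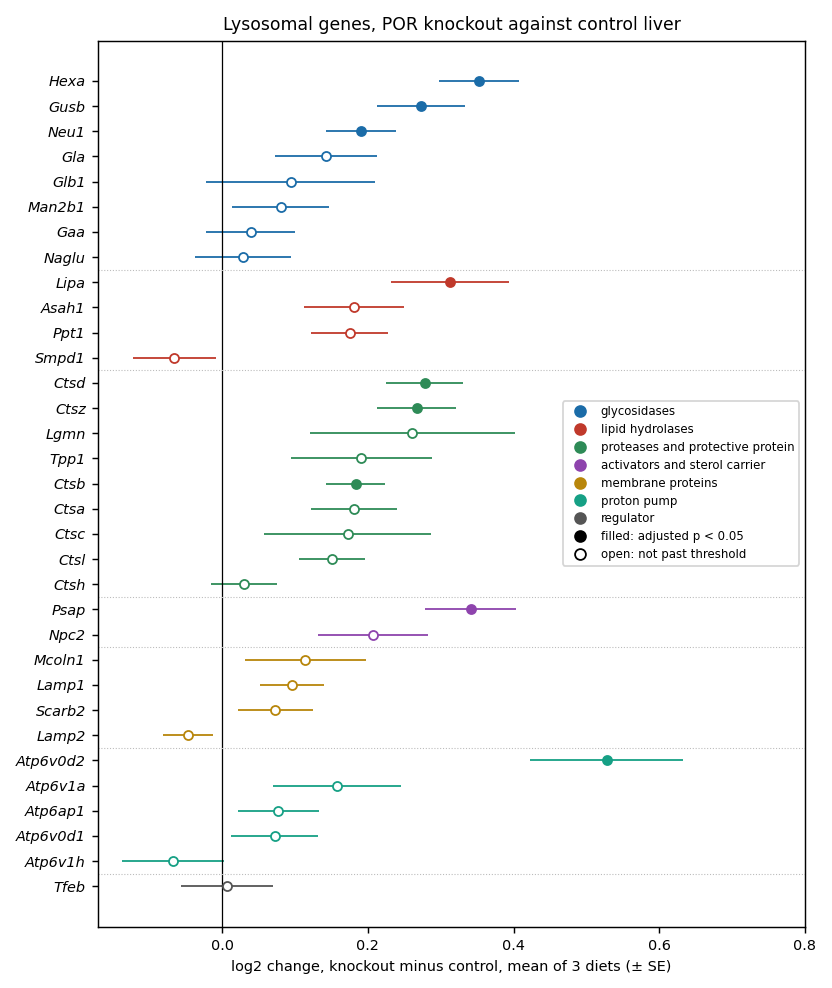
Log2 change of each of the 33 lysosomal genes, knockout minus control, averaged over 3 diets, with its SE; genes are grouped by role and filled points passed an adjusted p of 0.05. The 9 filled points lie between 0.18 (Ctsb) and 0.53 (Atp6v0d2), and only Smpd1, Lamp2 and Atp6v1h lie below 0.

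Among the 8 glycosidases, which strip sugars from glycoproteins, glycolipids and glycosaminoglycans, Hexa, Gusb and Neu1 rose, and the median change was 0.118. Hexa encodes the alpha subunit of beta-hexosaminidase, which degrades GM2 ganglioside. Its log2 level was 10.18, 10.19 and 10.23 in the control pools on lard and 10.49, 10.68 and 10.86 in the knockout pools. On canola oil Hexa measured 10.19, 10.26 and 10.32 in controls against 10.38, 10.53 and 10.57 in knockouts, and on fish/fungal oil 10.25, 10.28 and 10.42 against 10.59, 10.65 and 10.74. Every knockout pool thus lay above every control pool of its diet, and the averaged change was 0.35 ± 0.055 (SE; limma adjusted p = 0.00115), a rise of 27.7%.

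Gusb, beta-glucuronidase, removes glucuronic acid residues from glycosaminoglycans. Its control pools read 8.18, 8.35 and 8.41 on lard, 8.01, 8.22 and 8.28 on canola oil and 8.15, 8.19 and 8.22 on fish/fungal oil. The knockout pools read 8.57, 8.69 and 8.69, then 8.29, 8.36 and 8.52, then 8.27, 8.50 and 8.58 on the same diets. The groups did not overlap within any diet, though on canola oil the highest control and the lowest knockout pool were nearly level; the change was 0.27 ± 0.060 (SE; limma adjusted p = 0.0135), a rise of 20.8%.

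Neu1, the sialidase that works in a complex with the protective protein Ctsa, had a smaller change of 0.19 ± 0.048 (SE; limma adjusted p = 0.0298), a rise of 14.1%. Control pools read 8.00, 8.01 and 8.07 on lard and 7.82, 7.85 and 7.97 on fish/fungal oil, where knockout pools read 8.09, 8.17 and 8.21 and then 8.15, 8.23 and 8.39. On canola oil the groups overlapped, at 8.10, 8.10 and 8.15 in controls and 8.13, 8.15 and 8.26 in knockouts. The call for Neu1 was lost without any 1 of 8 arrays (control lard pools 2 and 3, knockout lard pools 1 and 2, control canola pool 3, knockout canola pool 3, control fish/fungal pools 1 and 3), with adjusted p up to 0.0625 (limma). Neu1 had 2 dimmer probe sets, with changes of 0.01 and -0.02, and over the mean of its probe sets the change was 0.06 (limma adjusted p = 0.467).

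The other 5 glycosidases did not pass the test. Gla, alpha-galactosidase, had the largest change of these at 0.14 ± 0.070 (SE; limma adjusted p = 0.296), and Naglu, which acts on heparan sulfate, had the smallest at 0.03 ± 0.066 (adjusted p = 0.877). Gaa, which degrades glycogen, had a change of 0.04, Man2b1, an alpha-mannosidase, 0.08, and Glb1, beta-galactosidase, 0.09. A second Man2b1 probe set read -0.18, so its direction depended on the probe set.

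Of the 4 lipid hydrolases, Lipa rose with the knockout, and the median change of the group was 0.178. Lipa encodes lysosomal acid lipase, which cleaves cholesteryl esters and triglycerides. On lard its control pools read 10.16, 10.24 and 10.41 and its knockout pools 10.56, 10.61 and 10.67. On canola oil the pools overlapped, at 10.11, 10.32 and 10.45 in controls and 10.15, 10.45 and 10.60 in knockouts. On fish/fungal oil controls were the lowest of all groups, at 9.40, 9.75 and 9.84, against 9.91, 10.22 and 10.31 in knockouts. The averaged change was 0.31 ± 0.081 (SE; limma adjusted p = 0.0334), a rise of 24.2%, and the 3 Lipa probe sets gave 0.31, 0.21 and 0.26. This call was lost without any 1 of 10 arrays (control lard pools 2 and 3, knockout lard pools 1 and 3, control canola pool 3, knockout canola pools 1 and 2, control fish/fungal pool 2, knockout fish/fungal pools 1 and 2), with adjusted p up to 0.0784 (limma); with probe sets prone to cross-hybridization left out it was 0.134.

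Asah1, acid ceramidase, and Ppt1, which removes palmitate from proteins, had changes of 0.18 ± 0.069 and 0.18 ± 0.053 (SE; limma adjusted p = 0.159 and 0.0709). Ppt1 measured 8.17 to 8.51 in the 9 control pools and 8.51 to 8.71 in the 9 knockout pools, so the ranges met at 8.51. Its 5 probe sets were split: the 2 bright ones gave 0.18 and 0.23, and the 3 dim ones -0.05, -0.04 and -0.12. Smpd1, acid sphingomyelinase, had a change of -0.07 ± 0.057 (SE; adjusted p = 0.604). On lard the Smpd1 pools did not overlap, with knockouts at 9.01 to 9.12 below controls at 9.22 to 9.33; 6.84% of all genes had knockout pools below control pools on that diet.

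Proteases followed a similar order, with 3 of 9 higher and a median change of 0.183. Ctsd, the aspartyl protease of lysosomes, read 10.97, 11.00 and 11.07 in controls on lard, 10.83, 10.87 and 10.89 on canola oil and 10.85, 10.88 and 10.92 on fish/fungal oil. Its knockout pools read 11.20, 11.35 and 11.46, then 10.88, 11.08 and 11.22, then 11.10, 11.15 and 11.33. A single knockout pool on canola oil, at 10.88, fell among its controls; the change was 0.28 ± 0.053 (SE; limma adjusted p = 0.00574), a rise of 21.2%.

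Ctsz, a cysteine carboxypeptidase, had its widest gap between genotypes on fish/fungal oil, though no difference of its knockout effect between diets passed the interaction test. Control pools read 11.88, 11.90 and 11.99 on lard and 11.96, 11.99 and 12.03 on canola oil, but 11.48, 11.51 and 11.68 on fish/fungal oil. Knockout pools read 11.94, 12.14 and 12.28, then 11.90, 12.11 and 12.18, then 11.97, 12.14 and 12.17. The groups of Ctsz thus separated on fish/fungal oil, where the control pools were the lowest of all, and overlapped on both other diets; the averaged change was 0.27 ± 0.054 (SE; limma adjusted p = 0.00802), a rise of 20.3%. Its other probe sets gave 0.29 and 0.12.

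Ctsb, a cysteine protease with both endopeptidase and carboxypeptidase activity, had the smallest rise of the 9. Its control pools read 12.51, 12.56 and 12.71 on lard, 12.47, 12.63 and 12.67 on canola oil and 12.41, 12.43 and 12.47 on fish/fungal oil. Its knockout pools read 12.73, 12.79 and 12.84, then 12.65, 12.69 and 12.73, then 12.64, 12.68 and 12.76. The pools of Ctsb overlapped on canola oil alone, and the change was 0.18 ± 0.040 (SE; limma adjusted p = 0.0123); its other 4 probe sets gave 0.27, 0.28, 0.11 and 0.09.

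The remaining 6 genes of the protease group did not pass the test. Ctsl, another cysteine protease, came closest with 0.15 ± 0.045 (SE; limma adjusted p = 0.0668), and its 9 control pools at 13.01 to 13.35 overlapped its 9 knockout pools at 13.25 to 13.51. Ctsa, the protective protein of Neu1 and Glb1, had 0.18 ± 0.059 (adjusted p = 0.0912). Lgmn, the asparaginyl endopeptidase that processes cathepsins, had a change of 0.26 ± 0.141 (adjusted p = 0.357), as large as that of Ctsz but with the widest spread between pools of the 33 genes (within-group SD 0.344, against a median of 0.119). Tpp1, a tripeptidyl peptidase, had 0.19, Ctsc, which activates serine proteases of immune cells, 0.17, and Ctsh, an aminopeptidase, the smallest at 0.03.

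Psap encodes prosaposin, the precursor of the saposins that present sphingolipids to their hydrolases. Its control pools read 11.55, 11.68 and 11.79 on lard, 11.32, 11.60 and 11.61 on canola oil and 11.57, 11.63 and 11.69 on fish/fungal oil. Its knockout pools read 11.89, 11.92 and 12.09, then 11.65, 11.91 and 12.03, then 11.84, 12.03 and 12.14. The groups were apart within each diet, and the change of 0.34 ± 0.063 (SE; limma adjusted p = 0.00418), a rise of 26.6%, was of similar size on lard (0.30), canola oil (0.35) and fish/fungal oil (0.37). Npc2, the soluble carrier that hands cholesterol to the membrane protein Npc1, had a change of 0.21 ± 0.075 (SE; adjusted p = 0.139). On lard Npc2 read 10.73 to 10.83 in controls and 11.11 to 11.15 in knockouts, while on the other two diets the pools overlapped.

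The 4 membrane proteins had a median change of 0.084, and none passed the test (1 had an unadjusted p under 0.05, limma); 3 of 33 genes of the whole set had an averaged change below 0, and Lamp2 was among them. Lamp1 and Lamp2, the most abundant glycoproteins of the lysosomal membrane, had changes of 0.10 ± 0.044 and -0.05 ± 0.034 (SE; limma adjusted p = 0.25 and 0.528). The 9 control pools of Lamp1 read 12.27 to 12.49 and its 9 knockout pools 12.29 to 12.57. Lamp2 had the narrowest pool spread of the 33 genes, a within-group SD of 0.054; its other 3 probe sets gave 0.05, 0.04 and 0.08, so its sign depended on the probe set. Scarb2, the receptor that brings glucocerebrosidase to lysosomes, had 0.07 ± 0.051 (adjusted p = 0.505), and Mcoln1, a cation channel, had 0.11 ± 0.083 (adjusted p = 0.521).

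Among the pump subunits Atp6v0d2 stood apart. It is the second isoform of the d subunit of the membrane domain, best known from osteoclasts and macrophages, while Atp6v0d1 is the isoform found in most cells. Atp6v0d2 read 5.68, 6.18 and 6.22 in controls on lard, 5.77, 6.09 and 6.12 on canola oil and 6.07, 6.20 and 6.44 on fish/fungal oil. Its knockout pools read 6.33, 6.41 and 7.07, then 6.15, 6.43 and 6.52, then 6.76, 6.91 and 6.93. The knockout pools lay above the controls of each diet, and the change was 0.53 ± 0.105 (SE; limma adjusted p = 0.00693), or 1.442-fold; a second probe set gave 0.68. The other 4 subunits did not pass the test: the catalytic subunit Atp6v1a had 0.16 ± 0.088 (adjusted p = 0.374; a second probe set gave -0.07), the accessory protein Atp6ap1 0.08, Atp6v0d1 0.07 and the regulatory subunit Atp6v1h -0.07.

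The transcript of Tfeb itself read 6.84 to 7.35 in the 9 control pools and 6.93 to 7.30 in the 9 knockout pools. Its change was 0.01 ± 0.063 (SE; limma adjusted p = 0.974), with a 95% interval of -0.13 to 0.14, and its sign turned under another normalization (-0.02) or centring (-0.01). The array measured its RNA, and neither the amount of the protein nor its place in the cell. Of the 7 genes with a promoter window that were higher in the knockout, 1 (Ctsd) had the core CACGTG, as printed above. Of the 21 with a window that were not called, 11 had it, and of all genes with a window 8.09% did. Ctsb and Atp6v0d2, which were also higher, had no window. The part of Tfeb in the changes was not tested.

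**Figure D2:**
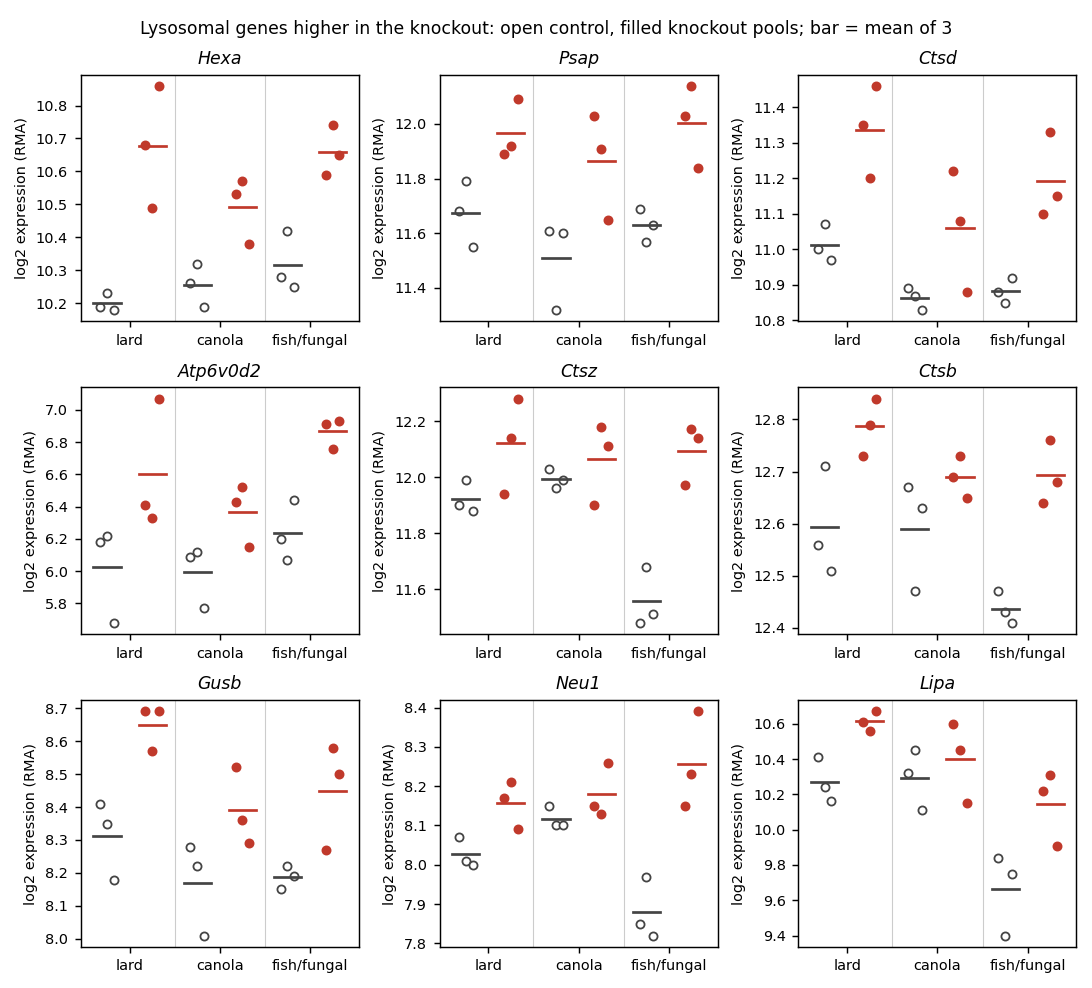
Log2 level in each pool for the 9 lysosomal genes that were higher in the knockout, by diet; open points are control pools, filled points knockout pools, and bars the mean of 3 pools. In Hexa, Psap, Gusb and Atp6v0d2 the knockout pools lie above the control pools on each diet, and in Ctsz the control pools on fish/fungal oil, at 11.48 to 11.68, lie below all other groups.

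Within each diet, 3 pools faced 3, and fewer genes passed the test. On lard 1 of the 33 genes was higher, Hexa at 0.48 ± 0.095 (SE; limma adjusted p = 0.0228), against 0.898% of all genes, and the median change of the 33 was 0.141. On canola oil 0 of the 33 passed (limma; 4 had an unadjusted p under 0.05, as 6.14% of all genes did), against 0.0636% of all genes in either direction, and the median change was 0.096. On fish/fungal oil 1 was higher, Ctsz at 0.54 ± 0.094 (SE; limma adjusted p = 0.0172), against 0.254% of all genes, and the median change was 0.154. Hexa on lard lost its call without any 1 of 5 of the 6 lard pools (all but knockout pool 2; adjusted p up to 0.103 without knockout pool 3). Ctsz on fish/fungal oil lost its call without control pool 1 or 3 or knockout pool 2 or 3 of that diet (adjusted p up to 0.113, limma).

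Pools that did not overlap give the same contrast without a model. Knockout pools lay above all control pools of the diet for 12 of the 33 genes on lard (9.14% of all genes), 7 on canola oil (7.04%) and 11 on fish/fungal oil (5.72%). Hexa, Gusb, Psap and Atp6v0d2 did so on each of the 3 diets, that is 4 of 33 genes against 0.93% of all genes. The reverse, knockouts below controls, held for Smpd1 on lard and, among 4.24% of all genes, for Lamp2 on canola oil. With the diets combined, 0 of the 33 genes had all 9 knockout pools above all 9 controls, against 0.31% of all genes.

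Whether the knockout effect differed between diets was tested by an interaction term, and 0 of the 33 genes and 0% of all genes tested passed (limma). The unadjusted p was under 0.05 for 2 of the 33 genes, Ctsz and Neu1, and for 242 of the 12578 genes; the adjusted p was 1 for each of the 33 (limma). For Ctsz the effect was 0.19 on lard, 0.07 on canola oil and 0.54 on fish/fungal oil, the diet on which its control pools were low. For Neu1, whose control pools were also lowest on fish/fungal oil, the effect there was 0.38 (limma adjusted p = 0.0686).

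Dietary fat changed 1 lysosomal gene, Lipa, in the averages over both genotypes. The 6 pools on fish/fungal oil read 9.40 to 10.31 with a median of 9.88, the 6 on lard 10.16 to 10.67 with a median of 10.49, and the 6 on canola oil 10.11 to 10.60 with a median of 10.39. Lipa fell by 31% on fish/fungal oil against lard (log2 change -0.54 ± 0.099 SE; limma adjusted p = 0.00544), where 1.78% of all genes were lower and 0.541% higher. Against canola oil the change of Lipa was -0.44 ± 0.099 (SE; limma adjusted p = 0.0393), where 0.692% of all genes were lower. The 2 contrasts share the fish/fungal pools and are not independent. The other Lipa probe sets gave -0.53 and -0.56 against lard and -0.39 and -0.62 against canola oil. The call against lard held without each array in turn (limma adjusted p up to 0.0181). That against canola oil was lost without any 1 of 12 arrays, with adjusted p up to 0.118 (without knockout canola pool 1, limma); only leaving out control lard pool 1, knockout lard pool 3, control canola pool 3, knockout canola pool 3, control fish/fungal pool 1 or knockout fish/fungal pool 2 kept it.

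**Figure D3:**
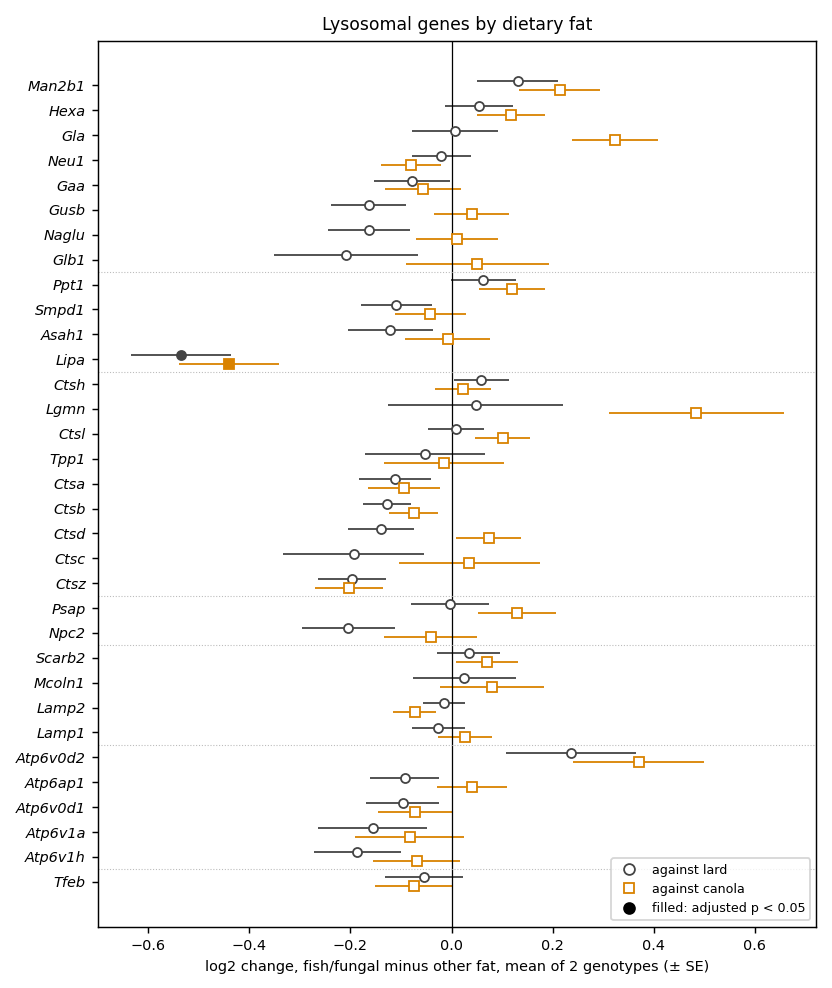
Log2 change of the 33 lysosomal genes on fish/fungal oil against lard (circles) and against canola oil (squares), averaged over both genotypes, with its SE; filled points passed an adjusted p of 0.05. Only Lipa is filled, at -0.54 and -0.44, and Gla and Lgmn lie to the right of 0 against canola oil but near 0 against lard.

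Split by genotype, the change of Lipa on fish/fungal oil was -0.61 against lard and -0.63 against canola oil in controls (limma adjusted p = 0.0571 and 0.0741), and -0.47 and -0.25 in knockouts (adjusted p = 0.229 and 0.919). The changes of Ctsz were -0.37 and -0.44 in controls (limma adjusted p = 0.0982 and 0.065), against -0.03 and 0.03 in knockouts. None of the 33 genes passed in these 4 contrasts, in which 0.716% and 0.461% of all genes passed against lard (controls, then knockouts) and 0.262% and 0.159% against canola oil; 4, 2, 6 and 2 of the 33 had an unadjusted p under 0.05 (limma), against 7.97%, 8.55%, 6.57% and 5.92% of all genes.

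In the probe set used, Gla separated canola oil from the fish/fungal mixture without passing the test. Its pools on canola oil read 5.43, 5.60 and 5.76 in controls and 5.73, 5.77 and 5.91 in knockouts, against 5.95 to 6.25 in the 6 fish/fungal pools. It was the 1 of 33 genes whose 6 pools on fish/fungal oil lay above the 6 on canola oil, as for 0.334% of all genes, and the change was 0.32 ± 0.085 (SE; limma adjusted p = 0.0876). The other Gla probe sets, which were dim, gave 0.07 and -0.05, so this change rests on a single probe set. Lgmn had a larger change of 0.48 ± 0.173 (SE; adjusted p = 0.266), but its pools overlapped, at 7.80 to 8.72 on canola oil and 8.47 to 8.99 on fish/fungal oil. In this contrast 18 of 20 markers of Kupffer cells and other macrophages also had a change above 0, with a median of 0.322; Lyz2 passed (0.65 ± 0.144 SE; limma adjusted p = 0.0367, lost without any 1 of 9 arrays, up to 0.105 without knockout canola pool 3), 16 had an unadjusted p under 0.05, and their part in the values of Gla and Lgmn was not tested. Over the 33 genes the median change on fish/fungal oil was -0.079 against lard and 0.023 against canola oil.

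Canola oil against lard changed none of the 33 genes and 0% of all genes (limma; 5 of the 33 and 6.77% of all genes had an unadjusted p under 0.05). The values were below 0 for 28 of the 33, with a median of -0.074; over all genes 45.8% were above 0. Markers of Kupffer cells and other macrophages moved the same way, with 20 of 20 below 0, a median of -0.264 and 0 past the test (10 with an unadjusted p under 0.05, limma); their part in these values was not tested. Lgmn (-0.44 ± 0.173 SE) and Gla (-0.32 ± 0.085 SE) had the lowest of these values (limma adjusted p = 0.624 and 0.344).

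The other genes of the lysosome were read from 4 lists of 82 genes, of which 75 were tested. In the averaged knockout effect 10 of the 75 were higher (13.3%) and 0 lower, 57 had a change above 0, and the median was 0.086. Of 24 further hydrolases 5 were higher, led by Acp2, the lysosomal acid phosphatase, at 0.62 ± 0.066 (SE; limma adjusted p = 3.66e-05). Acp2 read 7.99 to 8.45 in the 9 control pools, taken over the diets, and 8.77 to 9.27 in the knockouts. Pla2g15, a phospholipase (0.41), Galns, a sulfatase (0.30), and the cysteine proteases Ctsf (0.25) and Ctso (0.22) followed. Of 21 membrane and transport genes 0 passed (5 with an unadjusted p under 0.05, limma), a count near the 3.82% of all genes that were higher, and 2 of 10 further pump subunits did, Atp6v0e (0.26) and Atp6v1b2 (0.26).

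Of 20 regulators and autophagy genes 3 were higher. Rragd, a GTPase that recruits mTORC1 to lysosomes and is itself a known target of Tfeb, had the largest change, 0.94 ± 0.090 (SE; limma adjusted p = 1.05e-05), or 1.916-fold. Its knockout pools read 6.55, 6.77 and 6.91 on lard, 6.21, 6.31 and 6.97 on canola oil and 6.19, 6.34 and 6.52 on fish/fungal oil, and its controls 5.41 to 5.82 over the 3 diets, so the genotypes did not overlap. The controls of Rragd lay near the array medians of 5.229 to 5.286. It was tested in 7 of the 9 alternative fits that kept all arrays, and kept its call there. Grn, progranulin, had 0.23 and Sqstm1, an autophagy receptor, 0.19. With diet, the serine carboxypeptidase Scpep1 resembled Lipa in direction, at -0.60 ± 0.10 against lard and -0.49 ± 0.10 against canola oil (SE; limma adjusted p = 0.00224 and 0.0207), while Galns was higher on fish/fungal than on canola oil by 0.40 (limma adjusted p = 0.0214), the contrast in which macrophage markers had a median change of 0.322. Over the mean of all probe sets the changes of Ctsf, Ctso and Atp6v1b2 were 0.08, 0.06 and 0.14, and their calls were lost (limma adjusted p = 0.511, 0.517 and 0.0536). Leaving out any 1 of 15 arrays ended the call of Ctsf (limma adjusted p up to 0.108), any 1 of 12 that of Ctso (up to 0.0793, both without knockout canola pool 2) and any 1 of 6 that of Grn (up to 0.0637, without control lard pool 3). The canola contrasts of Scpep1 and Galns were lost without any 1 of 6 and 5 arrays (limma adjusted p up to 0.0638 and 0.0697, without knockout canola pool 1). Both were also lost over the mean of all probe sets (limma adjusted p = 0.0938 and 0.11).

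Markers of macrophages moved with the knockout as well. Of 20 markers of Kupffer cells and other macrophages 10 were higher and 0 lower in the averaged knockout effect, 19 had a change above 0, and the median was 0.332. The 5 with the smallest adjusted p were Mmp12, Mpeg1 (0.39), Itgax (0.26), Cd68 (0.52) and Gpnmb (0.51). Itgax and Gpnmb lay near the array medians, with group means of 5.57 to 5.98 and 5.36 to 6.34. Mmp12, a macrophage elastase, read 3.74, 3.82 and 3.83 in controls on lard and 6.55, 6.58 and 7.10 in knockouts. Its mean lay below the array medians in 5 of the 6 groups, all but the knockouts on lard, so that no averaged change is given, and it passed the brightness filter through knockout arrays alone. Without Mmp12, 9 of 19 macrophage markers were higher, 18 had a change above 0, and the median was 0.329. Among the markers that were higher, Cd68, Gpnmb, Ctss and Lyz2 themselves encode proteins of lysosomes or related organelles. The marker list shares no gene with the lysosomal set, but it is not a readout separate from lysosomal genes. Clec4f, a marker of Kupffer cells, and Adgre1, a marker of macrophages more widely, were present in all groups. Their group means were 9.83 to 10.34 and 8.23 to 8.84, and their changes of 0.21 and 0.28 did not pass (limma adjusted p = 0.188 and 0.113).

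The mean log2 level of the 20 macrophage markers was 8.20 to 8.54 in control and 8.98 to 9.05 in knockout pools on lard, 8.11 to 8.47 and 8.41 to 8.72 on canola oil, and 8.55 to 8.62 and 8.46 to 9.07 on fish/fungal oil. The groups of this mean were apart on lard and overlapped on canola and fish/fungal oil. As given above, knockout pools lay above control for 12 of the 33 lysosomal genes on lard (9.14% of all genes). The counts were 7 on canola oil (7.04%) and 11 on fish/fungal oil (5.72%). On fish/fungal oil 1 knockout pool, number 3, lay at 8.46, below the controls of that diet, while the others lay at 9.02 and 9.07, above them. Without number 3 the same 9 lysosomal genes were higher, and 15 macrophage markers were. Markers of stellate cells (0 of 10 higher, median change 0.281, 6 with an unadjusted p under 0.05), sinusoidal endothelium (0 of 10, 0.037, 2 with an unadjusted p under 0.05), cholangiocytes (0 of 3, 0.056), lymphocytes (0 of 5, 0.053), neutrophils (0 of 4, -0.09) and hepatocytes (0 of 8, -0.028) did not pass the test in limma, and no marker of the cholangiocyte, lymphocyte, neutrophil and hepatocyte lists had an unadjusted p under 0.05. The part of these cells in the rise of the lysosomal genes was not tested, and in RNA of whole liver a change in the number of cells of a type and a change in RNA per cell cannot be told apart.

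**Figure D4:**
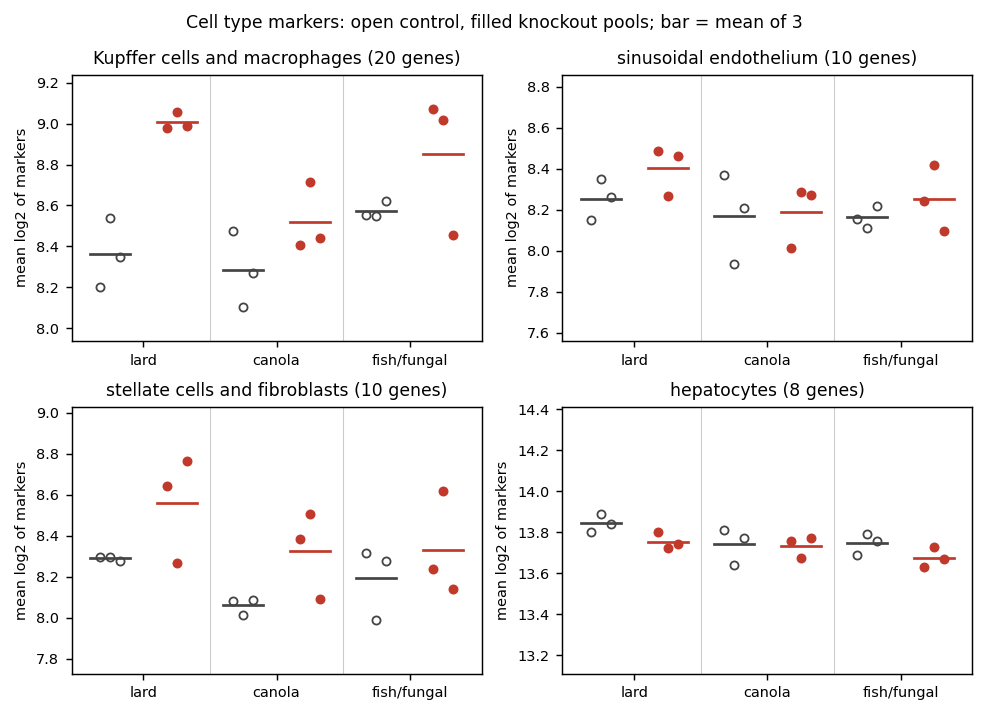
Mean log2 level of the tested markers of 4 cell types in each pool, by diet; open points are control pools, filled points knockout pools, and bars the mean of 3 pools. Macrophage markers are 8.98 to 9.05 in knockouts on lard against 8.20 to 8.54 in controls, and the hepatocyte markers stay between 13.63 and 13.89.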

How the data were processed

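The deposited values are log2 expression per probe set of an Affymetrix mouse genome array, made by the authors with RMA, per the submitters' processing notes; other settings are not given in the sources used here. Of 45101 probe sets, 34945 had 1 gene symbol in the platform annotation, 932 several and 9160 were not listed; 34741 symbols were updated by gene ID through the RefSeq table of GRCm38.p6. The probe set with the highest mean stood for each gene. A linear model with 6 group means was fitted to the 12578 genes tested with limma 3.58.1 (R 4.3.3; lmFit, eBayes with an intensity trend, 12 residual degrees of freedom), and p-values were adjusted by the Benjamini-Hochberg method over all of them. Background correction and summarization by RMA compress the changes of dim probe sets, so log2 changes of genes near the array medians may be understated. The hepatocyte markers, with a mean of 13.63 to 13.89, lay near the highest value of the arrays, 14.89. Changes of such bright probe sets may be understated as well. Arrays are pools of 3 mice, so p-values measure the spread between pools. No pair of arrays was identical. The number of arrays, 3 per group, limits the precision. On simulated data for the averaged knockout effect, with 9 arrays per genotype and 12578 genes, 32.8% of planted changes of 0.25 were called. The shares were 92.5% for changes of 0.5 and 100% for those of 1, with 12 false calls. The simulated noise was normal and independent between genes, without diet effects, and 66 or 67 genes were planted per size. The real data differ in these settings, so the shares do not give their power or error rate. The tests within a diet, with 3 pools against 3, were not simulated, so these shares do not describe them.

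The 33 genes, the other lists and the tests were chosen with earlier results of these data known. Values in every array are given for each gene of the 33 past the threshold in any contrast. The largest and smallest of each role group are named, and up to 5 genes of each further list with the smallest adjusted p. Gla, Lgmn, Ppt1, Smpd1, Npc2 and the macrophage markers Clec4f and Adgre1 were singled out after their values were seen. Alternatives were another normalization and centring, other filters on dim genes, other rules for probe sets, no intensity trend, array weights, the replicate number as a block and fits without each array in turn; for the further genes they were added after seeing the data. Promoter sequences are those of RefSeq; the targeted gene and genes not listed in the annotation were not analysed here.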

Additional observations from a re-analysis of the deposited data

How the results depend on the processing

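In the averaged knockout effect, the count of 9 of the 33 genes ranged from 7 (mean of all probe sets) to 11 (array weights, which added Ctsa and Ppt1) over the alternatives, and from 7 to 9 with 1 array left out. Hexa, Gusb, Ctsd, Ctsz, Ctsb and Psap kept their calls in each of these fits, as did Atp6v0d2 where it was tested (not with the 75th percentile filter). On lard the count of 1 was 0 to 1 with 1 array left out. On fish/fungal oil the count of 1 was 2 with the 75th percentile filter, 0 with the mean of all probe sets and 0 to 1 with 1 array left out. For fish/fungal against canola oil over both genotypes the count of 1 was 0 without probe sets prone to cross-hybridization and 0 to 1 with 1 array left out. In controls, the count of 0 for fish/fungal oil against lard was 1 with the 75th percentile filter, the mean of all probe sets, cross-hybridizing probe sets left out or array weights, and that against canola oil was 1 after centring arrays on the genes tested or with the mean of all probe sets; both were 0 to 1 with 1 array left out. The cause was not tested. The count of further lysosomal genes, 10, was 7 to 11 and that of macrophage markers, 10, was 7 to 15 with 1 array left out. No called change turned its sign. Of the changes that were not called, those of Man2b1, Lamp2 and Ctsh turned with the mean of all probe sets (-0.05, 0.03 and -0.001), that of Man2b1 also without cross-hybridizing probe sets (-0.18), that of Tfeb in 9 of the fits and that of Naglu in 2. Pools with the same replicate number showed no clear pairing, though these values cannot exclude it. Over 45 pairs their deviations correlated at -0.397 to 0.458 (17 over 0.1). The median was -0.008, against -0.041 for pools with different numbers, and 8 of 18 arrays were closest to their own number. With the replicate number as a block the same 9 genes were higher, and 1 gene was lower in controls on fish/fungal oil both against lard and against canola oil, where the fit without a block had 0. Dim genes such as Atp6v0d2, Gla, Rragd, Itgax and Gpnmb lie near the array medians. At that level signal over background limits the change that can be measured.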
